A study of Mus musculus with 19 samples.

Results

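The genes described here are 55 genes of the nuclear pore and of transport between nucleus and cytoplasm, taken by symbol from a list of pore and transport genes out of 53801 gene IDs in the deposited count tables. They comprise 27 nucleoporins, 23 transport receptors and 5 genes of the Ran system. All 55 were found, and all 55 had enough reads to be tested in both harvests. The study placed dipeptide repeat proteins of C9orf72 disease in the mouse brain and measured RNA in 19 libraries of homogenised hippocampus and cortex. All mice were C57BL/6 and 3 months old, and all carried GFP from an adeno-associated virus of serotype 1 injected into the ventricles on the day of birth. The mice were taken in 2 harvests, each with its own controls. In the poly(PR) harvest, 7 mice (4 female, 3 male) received GFP fused to 50 proline-arginine repeats and 4 controls (3 female, 1 male) received GFP alone. In the poly(GR) harvest, 4 mice (3 female, 1 male) received GFP fused to 100 glycine-arginine repeats and 4 controls (2 female, 2 male) received GFP alone. The promoter of the vector is not given in the sources used here, and a homogenate mixes cells that the virus reached with cells that it did not.

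Nuclear pores are rings of nucleoporins set in the nuclear envelope, with an outer and an inner ring as scaffold, a central channel lined by phenylalanine-glycine repeats, cytoplasmic filaments and a nuclear basket. Importins and exportins carry proteins and RNA through the channel, and the GTPase Ran, loaded in the nucleus and hydrolysed in the cytoplasm, sets the direction of that traffic. Pore components and transport receptors have come up as modifiers of dipeptide repeat toxicity in yeast and fly screens, and arginine-rich repeat proteins are known to bind importins and phenylalanine-glycine domains.

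Gene reads per library ran from 26934239 to 47648711. Lists of markers for neurons, astrocytes, microglia, oligodendrocytes and other cells of the dissected tissue were detected throughout, with no marker at 0 in any library. Levels are given as reads in 1000000 gene reads (CPM), after TMM scaling for single genes and without it for summed markers. The summed cortical excitatory neuron markers were 1442 to 1514 CPM in the controls of the poly(PR) harvest. In the poly(PR) mice they were 1298 to 1411 CPM, without overlap. Striatum markers did not overlap in either harvest: 1160 to 1223 against 1436 to 2190 CPM with poly(PR), and 1189 to 1372 against 1539 to 1750 CPM with poly(GR). Summed microglia markers were 289 to 314 CPM in the controls and 333 to 403 CPM in the poly(PR) mice, without overlap. Of the 8 single microglia markers 5 had a log2 fold change above 0 and 3 below 0, and 0 were called. Summed choroid plexus markers were 128 to 354 CPM in the controls and 15.0 to 125 CPM in the poly(GR) mice, again without overlap. With a striatum score as covariate 0 of the 55 genes passed under poly(PR), and 0 of all genes passed. With a choroid plexus score 0 of the 55 passed under poly(GR). The sums of these markers did not overlap between the groups, so such fits cannot part the score from the treatment. The SE of Kpna1 under poly(PR) rose from 0.15 to 0.30 with the striatum score. With that score the poly(PR) log2 fold change of Pom121 moved from -0.28 to -0.50 (SE 0.26) and that of Kpna6 from -0.15 to -0.26 (SE 0.18). That of Kpna2 moved from -0.12 to -0.52 (SE 0.35) and that of Ranbp1 from 0.03 to -0.10 (SE 0.098). The part of the cortical excitatory neuron and microglia differences was not tested. In a homogenate, fewer cells of a type and less RNA per cell cannot be told apart.

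Per length of exon, Ran and Rangap1 were the most abundant of the 55. In the controls of the poly(GR) harvest, Ran itself stood at 68.4 ± 2.96 (SD, n = 4) CPM per kilobase of exon (RPKM) and Rangap1, which triggers GTP hydrolysis by Ran in the cytoplasm, at 55.8 ± 2.72 (SD, n = 4). Kpnb1, the importin beta that carries classical cargo, stood at 30.4 ± 1.01 (SD, n = 4) on the same scale, close to Ipo5 at 29.5 ± 1.82 (SD, n = 4), a pair whose levels overlapped within their SD. The pore subunits that follow were lower. The channel nucleoporin Nup62 stood at 11.54 ± 0.39 (SD, n = 4), the Y complex scaffold Nup107 at 4.08 ± 0.16 (SD, n = 4) and Nup37, another subunit of the Y complex and the lowest of the 55, at 1.09 ± 0.12 (SD, n = 4), all per kilobase. The order at both ends of the scale was shared by the controls of the poly(PR) harvest, where Ran and Rangap1 again ranked first and second and Nup37 last.

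**Figure D1:**
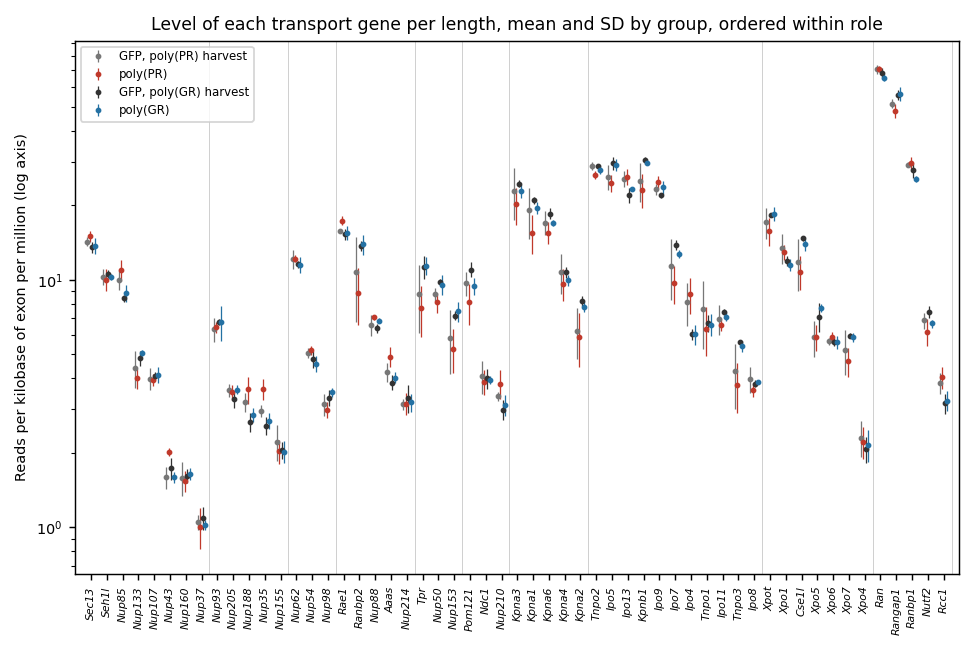
Level of each of the 55 transport genes in RPKM (log axis), with genes ordered within role; points are group means and bars SD over 4 or 7 mice. Ran and Rangap1 lie highest and Nup37 lowest in all 4 groups.

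Under poly(PR) none of the 55 genes passed the test. Across all genes 11 of 19156 passed at an adjusted p under 0.05, which is 0.0574%, and the smallest adjusted p among the transport genes was 0.186 (quasi-likelihood test of edgeR, Benjamini-Hochberg over all genes). DESeq2 also called 0 of them, and it put 7 at an unadjusted p under 0.05. Over all genes DESeq2 called far more than the 11 of edgeR, so the background depended on the tool. The DESeq2 share of all genes at an unadjusted p under 0.05 is not given here, so its 7 cannot be set against a background. By edgeR there were 4 at that level, all higher in the poly(PR) mice, and 0 lower, against 7.64% and 7.31% of all genes, or 14.9% in either direction. They were the pore subunits Nup43, Nup35, Rae1 and Aaas. The log2 fold changes of the 55 lay between -0.33 and 0.33, and the 95% interval stayed within 1.5-fold in either direction for 49 of them. The exceptions were Ranbp2, Tpr, Kpna1, Ipo7, Tnpo1 and Tnpo3.

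Of the scaffold, Nup43 showed the largest value. This small subunit of the Y complex, the outer ring, lies on chromosome 10 from base 7667503 to 7678881 of GRCm38. Its level was 4.53, 4.28, 3.86 and 3.63 CPM in the 4 GFP controls, in replicate order here and below, and between 4.94 and 5.46, with a median of 5.16, in the 7 poly(PR) mice. Every poly(PR) mouse lay above every control. The log2 fold change was 0.33 (SE 0.095, adjusted p = 0.186). Nup107, the subunit after which the complex is often named, was measured at 13.5, 15.4, 17.2 and 15.3 CPM in controls and between 14.0 and 16.1, with a median of 15.5, in the treated mice. The groups overlapped fully, with a log2 fold change of -0.019 (SE 0.082, adjusted p = 0.909). In the inner ring, Nup35, which anchors the ring to the membrane, stood at 9.41, 10.04, 9.65 and 10.7 CPM in controls and between 10.46 and 13.9, with a median of 12.2, in poly(PR) mice. Only the highest control and the lowest treated mouse overlapped, and the log2 fold change was 0.30 (SE 0.093, adjusted p = 0.225). Nup205, a large scaffold subunit of the same ring, had 33.5, 34.7, 34.7 and 30.3 CPM in controls and between 28.2 and 36.0, with a median of 33.4, in the treated mice, and overlapped between the groups.

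The channel nucleoporins lay close to 0 on the log2 scale. Nup62, a core protein of the channel meshwork, was at 35.5, 32.2, 32.1 and 38.4 CPM in controls and between 32.8 and 36.0, with a median of 35.0, in poly(PR) mice, with a log2 fold change of 0.018 (SE 0.064, adjusted p = 0.893). Its 95% interval ran from -0.12 to 0.16. Nup98, which shares the phenylalanine-glycine repeats and also binds Rae1, was at 35.2, 43.1, 43.0 and 37.1 CPM in controls and between 35.0 and 42.1, with a median of 36.4, in the treated mice. Both groups covered much the same range, and the log2 fold change was -0.087 (SE 0.080, adjusted p = 0.554).

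On the cytoplasmic face the mRNA export factor Rae1 was the second gene whose groups did not overlap. It stood at 39.8, 40.7, 40.1 and 39.7 CPM in the controls, a narrow range, and between 40.8 and 47.3, with a median of 44.4, in the poly(PR) mice. The log2 fold change was 0.15 (SE 0.057, adjusted p = 0.284). Non-overlapping groups thus occurred for 2 of the 55 genes, both higher with poly(PR), while of all genes 1.39% were higher and 1.32% lower without overlap, 2.71% in all. Aaas, the gene mutated in human triple A syndrome, had 12.7, 11.6, 10.4 and 12.7 CPM in controls and between 11.8 and 15.7, with a median of 13.3, in treated mice. The groups overlapped, at a log2 fold change of 0.22 (SE 0.094, adjusted p = 0.314). Ranbp2, the giant protein of the cytoplasmic filaments, varied far more within each group: 93.7, 162, 172 and 78.7 CPM in controls and between 76.6 and 148, with a median of 93.8, in treated mice. Its log2 fold change of -0.32 (SE 0.23, adjusted p = 0.458) came with an interval from -0.82 to 0.17, which takes in a level 1.5-fold lower. Ranbp2 counts are uncertain, because the annotation holds 12 pseudogenes named after it.

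The basket protein Nup153, a docking site for import complexes, likewise ranged widely, with 33.0, 50.6, 51.5 and 28.8 CPM in controls and between 29.1 and 46.9, with a median of 36.4, in the poly(PR) mice. High and low libraries occurred in both groups, and the log2 fold change was -0.20 (SE 0.17, adjusted p = 0.525). Pom121, a membrane-spanning nucleoporin, was measured at 53.0, 60.8, 55.9 and 46.2 CPM in controls and between 34.0 and 57.1, with a median of 43.8, in the treated mice. Its groups overlapped, with a log2 fold change of -0.28 (SE 0.14, adjusted p = 0.362); 11.9% of its exonic bases are shared with Nsun5 on the other strand, and the counts keep no strand.

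Among the receptors 19 of 23 had a log2 fold change below 0 under poly(PR), where 48.9% of all genes did, and none of the 23 had an unadjusted p under 0.05. That count depended on the model: it was 12 of 23 with 1 surrogate variable and 13 of 23 with the rRNA share as covariate, where 51.0% and 52.8% of all genes were below 0. The median over the 23 was -0.14, against 0.0062 over all genes tested. All 5 importin alpha adaptors, which recognise the classical nuclear localisation signal, were below 0 in the main fit, between -0.33 and -0.12. With 1 surrogate variable Kpna2 was at 0.14. With the rRNA share Kpna2, Kpna4 and Kpna6 were above 0, at 0.17, 0.017 and 0.0024. Kpna1, one of these adaptors, gave the most negative value of the 55. It was measured at 136, 186, 200.2 and 123 CPM in controls and between 105 and 165, with a median of 129.5, in poly(PR) mice. The upper 2 controls lay above every treated mouse and the lower 2 lay among them, at a log2 fold change of -0.33 (SE 0.15, adjusted p = 0.342). Kpna6 had 107, 121, 128 and 100.9 CPM in controls and between 89.0 and 120.5, with a median of 106, in the treated mice. The groups overlapped. Kpna2, an adaptor best known from dividing cells, had 15.6, 21.6, 21.2 and 13.2 CPM in controls and between 11.3 and 21.9, with a median of 18.3, in treated mice. Its groups covered the same span, with a log2 fold change of -0.12 (SE 0.19, adjusted p = 0.752). A pseudogene, Kpna2-ps, is annotated, which makes its counts uncertain.

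Kpnb1, the partner that takes the adaptors through the pore, was at 150.4, 190.0, 191 and 131 CPM in controls and between 123 and 181, with a median of 151, in the poly(PR) mice. The groups overlapped, at a log2 fold change of -0.15 (SE 0.13, adjusted p = 0.522). Tnpo1, the transportin that imports hnRNP proteins, had 57.6, 109, 106 and 67.8 CPM in controls and between 52.3 and 91.7, with a median of 68.5, in the treated mice. Its lowest control lay among the lowest treated mice, and the log2 fold change was -0.31 (SE 0.18, adjusted p = 0.399). The close relative Tnpo2 varied less, with 176, 182, 190.4 and 177 CPM in controls and between 161 and 176, with a median of 163, in treated mice. A single poly(PR) mouse lay above the lowest control, and the log2 fold change was -0.12 (SE 0.055, adjusted p = 0.341). Of its exonic bases 11.7% are shared with other genes.

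The export receptors overlapped throughout. Xpo1, the exporter of proteins with a leucine-rich export signal, was at 85.7, 101.3, 114 and 85.9 CPM in controls and between 82.2 and 99.9, with a median of 94.1, in the poly(PR) mice, with a log2 fold change of -0.069 (SE 0.089, adjusted p = 0.675). Cse1l returns importin alpha to the cytoplasm. It had 50.0, 75.0, 75.4 and 49.1 CPM in controls and between 45.2 and 68.2, with a median of 59.6, in the treated mice, with a log2 fold change of -0.16 (SE 0.15, adjusted p = 0.560). Xpo5, which exports microRNA precursors, had 34.5, 46.3, 45.6 and 34.1 CPM in controls and between 34.5 and 47.3, with a median of 39.6, in treated mice, and its log2 fold change was -0.026 (SE 0.11, adjusted p = 0.906).

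Ran varied least of the 55 across the libraries of the poly(PR) harvest, with a highest to lowest ratio of 1.09. It stood at 191, 179.6, 183 and 196 CPM in controls and between 179.8 and 194, with a median of 186, in poly(PR) mice, with a log2 fold change of 0.0064 (SE 0.053, adjusted p = 0.955) and a 95% interval from -0.11 to 0.12. Rangap1 had 255, 261, 247 and 237 CPM in controls and between 212 and 252, with a median of 233, in the treated mice. Rcc1, the chromatin-bound exchange factor that loads Ran with GTP, had 14.1, 14.7, 13.5 and 16.7 CPM in controls and between 13.9 and 18.5, with a median of 15.0, in the treated mice. Both overlapped between the groups, at log2 fold changes of -0.10 (SE 0.066, adjusted p = 0.434) for Rangap1 and 0.087 (SE 0.096, adjusted p = 0.618) for Rcc1. Ranbp1, a helper of Rangap1, had 50.1, 47.6, 48.2 and 47.9 CPM in controls and between 47.0 and 54.95, with a median of 48.4, in treated mice. Nutf2, which carries Ran back into the nucleus, had 13.7, 13.4, 15.5 and 13.2 CPM in controls and between 9.82 and 14.54, with a median of 12.4, in treated mice. Neither pair of groups separated, and Nutf2 counts are uncertain because 2 pseudogenes are named after it.

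**Figure D2:**
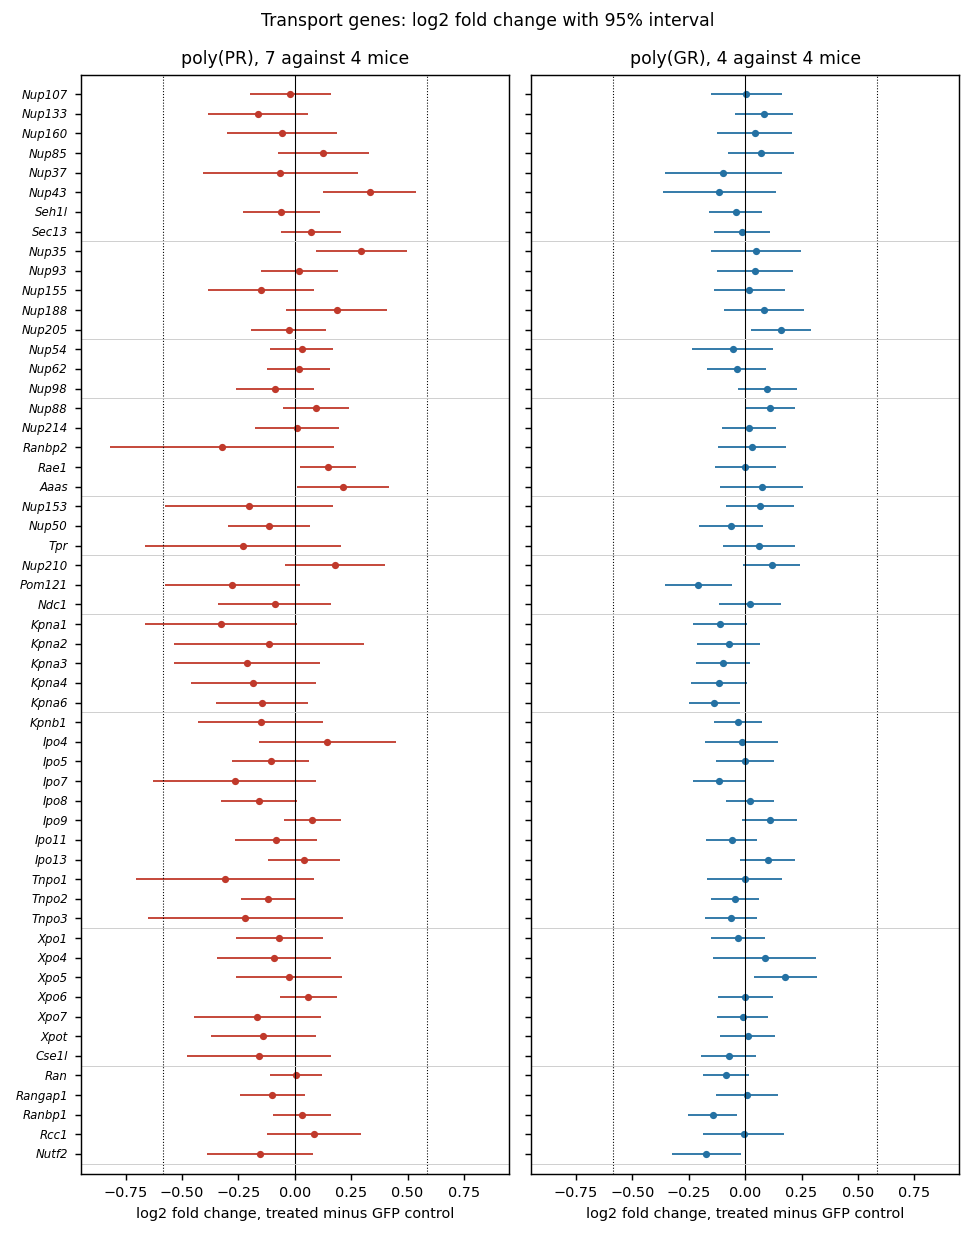
Log2 fold change of each transport gene, treated minus GFP control, with its 95% interval, for poly(PR) (left, 7 against 4 mice) and poly(GR) (right, 4 against 4); dotted lines mark 1.5-fold. The intervals are wider with poly(PR), where 6 of 55 cross a dotted line, and none does with poly(GR).

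Under poly(GR) no transport gene passed either, while 32 of 18511 genes did, or 0.173%. The smallest adjusted p was 0.297, and DESeq2 called 0, with 7 at an unadjusted p under 0.05. The DESeq2 share of all genes at that level is not given here either, so the 7 have no background. By edgeR, at an unadjusted p under 0.05 there were 6 of 55 against 11.5% of all genes. Nup205 and Xpo5 were higher, where 6.23% of all genes were, and Pom121, Kpna6, Ranbp1 and Nutf2 were lower, where 5.25% were. The log2 fold changes lay between -0.21 and 0.18 and every 95% interval stayed within 1.5-fold, so that the poly(GR) comparison had the narrower errors, with a median SE of 0.061 against 0.095 for poly(PR).

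Pom121 gave the largest poly(GR) value. It was measured at 61.3, 61.4, 66.5 and 56.2 CPM in the 4 controls and 48.2, 54.9, 49.8 and 57.3 CPM in the 4 poly(GR) mice. The highest treated mouse lay just above the lowest control, and the log2 fold change was -0.21 (SE 0.068, adjusted p = 0.297). Xpo5 stood at 45.5, 41.0, 54.6 and 53.5 CPM in the GFP mice and 53.4, 50.5, 52.6 and 54.6 CPM in poly(GR) mice. The treated mice lay within the upper range of the controls, and the log2 fold change was 0.18 (SE 0.064, adjusted p = 0.333). Nup205 had 30.4, 27.5, 31.9 and 33.1 CPM in the GFP mice and 34.3, 31.4, 33.8 and 34.5 CPM in treated mice. These overlapped too, with a log2 fold change of 0.16 (SE 0.061, adjusted p = 0.348). For both Xpo5 and Nup205 the lower control values were those of controls 1 and 2. These 2 controls, both female, had rRNA shares of repeat reads of 59.5% and 49.1%. Controls 3 and 4, both male, had 22.9% and 25.4%, and the poly(GR) mice had 22.1% to 29.2%. Among these controls the rRNA share and sex cannot be told apart.

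The importin alpha adaptors were again all below 0 in the main fit, between -0.14 and -0.074, beside 49.0% of all genes in that harvest. Kpna6 had 133, 124, 122 and 119 CPM in the GFP mice and 109.9, 113, 118 and 115 CPM in poly(GR) mice, with every treated mouse below every control. Its log2 fold change was -0.14 (SE 0.052, adjusted p = 0.349). Kpna1 had 186, 178, 174 and 173 CPM in the GFP mice and 158, 161, 178 and 166 CPM in treated mice. It overlapped, with a log2 fold change of -0.11 (SE 0.055, adjusted p = 0.475). Kpna2 had 24.4, 22.1, 23.5 and 24.3 CPM in the GFP mice and 23.0, 21.1, 23.6 and 21.9 CPM in treated mice, which also overlapped. Besides Kpna6, the cytoplasmic-face nucleoporin Nup88 and the importin Ipo9 had groups that did not overlap, both higher with poly(GR); among all genes 2.29% were higher and 2.41% lower without overlap, 4.7% in all. Nup88 ran from 50.0 to 54.3 CPM in controls and from 54.4 to 57.3 CPM in poly(GR) mice. Ipo9 ran from 175 to 186 CPM in controls and from 187 to 211 CPM in poly(GR) mice.

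In the Ran system, Ranbp1 had 48.3, 48.8, 42.4 and 44.6 CPM in the GFP mice and 43.0, 42.5, 43.7 and 40.9 CPM in poly(GR) mice. A single control lay within the treated range, at a log2 fold change of -0.14 (SE 0.051, adjusted p = 0.323). Nutf2 had 15.8, 15.4, 15.3 and 13.8 CPM in the GFP mice and 14.0, 13.0, 14.0 and 13.2 CPM in treated mice, and a log2 fold change of -0.17 (SE 0.070, adjusted p = 0.378). The lowest control lay among the treated mice. Ran had 189.7, 184, 179 and 171 CPM in the GFP mice and 177, 175, 176 and 166 CPM in poly(GR) mice, at a log2 fold change of -0.085 (SE 0.047, adjusted p = 0.526). Its groups overlapped. Rangap1 had 259, 271, 289.7 and 265 CPM in the GFP mice and 282, 294, 269.8 and 252 CPM in treated mice. For Rcc1 the values were 12.4, 13.5, 10.7 and 12.2 CPM in the GFP mice and 13.7, 11.7, 13.2 and 11.4 CPM in treated mice. Neither of these regulators separated the groups.

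The 4 pore genes with an unadjusted p under 0.05 in the poly(PR) harvest lay closer to 0 with poly(GR). They were picked by their poly(PR) values, which by itself tends to leave smaller values in the other harvest. When the 2 effects were compared by edgeR, only Nup43 of these 4 had an unadjusted p under 0.05. Nup43 had 4.51, 4.59, 3.81 and 4.87 CPM in the GFP mice and 4.00, 3.84, 4.08 and 4.37 CPM in poly(GR) mice, with a log2 fold change of -0.12 (SE 0.12, adjusted p = 0.754), of the opposite sign. Nup35 had 9.63, 8.34, 8.73 and 8.01 CPM in the GFP mice and 10.1, 8.70, 8.70 and 8.79 CPM in treated mice. All but 1 poly(GR) library lay within the control range. Rae1 had 36.8, 40.6, 40.6 and 38.0 CPM in the GFP mice and 39.5, 39.5, 42.6 and 36.3 CPM in treated mice, at a log2 fold change of -0.00011. Aaas had 10.03, 10.7, 11.8 and 10.51 CPM in the GFP mice and 11.9, 11.6, 10.7 and 10.9 CPM in treated mice. Both overlapped between groups.

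Of the remaining pore genes, Nup107 had 16.4, 15.5, 16.0 and 15.0 CPM in the GFP mice and 15.8, 15.0, 17.6 and 15.3 CPM in poly(GR) mice. Nup62 had 31.8, 34.4, 33.0 and 32.5 CPM in the GFP mice and 34.6, 34.6, 32.3 and 29.4 CPM in treated mice. Nup98 had 43.1, 37.8, 42.4 and 45.2 CPM in the GFP mice and 45.6, 41.5, 44.1 and 45.8 CPM in treated mice. All of these overlapped, at log2 fold changes of 0.0056, -0.038 and 0.098. Nup153 had 51.5, 49.6, 47.8 and 52.2 CPM in the GFP mice and 51.7, 45.8, 56.4 and 55.2 CPM in treated mice. Ranbp2 had 166, 155, 153 and 168 CPM in the GFP mice and 157, 145, 181 and 169 CPM in treated mice. Neither showed the wide scatter seen in the poly(PR) harvest.

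The large receptors were just as even. Kpnb1 had 200.0, 194, 196 and 209 CPM in the GFP mice and 194, 192, 197 and 196 CPM in poly(GR) mice. Tnpo1 had 77.4, 74.7, 67.1 and 80.5 CPM in the GFP mice and 67.0, 68.8, 77.5 and 82.4 CPM in treated mice. Their groups overlapped, at log2 fold changes of -0.032 and -0.0027. Tnpo2 had 182, 181, 183 and 179 CPM in the GFP mice and 167, 171, 179 and 181 CPM in treated mice. Xpo1 had 86.9, 79.6, 86.0 and 89.0 CPM in the GFP mice and 86.7, 78.2, 78.5 and 86.0 CPM in treated mice. Cse1l had 79.6, 75.9, 76.2 and 78.3 CPM in the GFP mice and 76.0, 66.9, 76.3 and 74.9 CPM in treated mice. Overlap held for these receptors as well.

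The poly(PR) and poly(GR) effects were then compared directly over all 19 libraries. The harvests shared no library. No transport gene passed the test of that difference, nor did any of 19863 genes (0%) in edgeR; DESeq2 called 4 genes in all and 0 of the 55. At an unadjusted p under 0.05 there were 2 transport genes by either tool, both with a higher value for poly(PR). By edgeR 5.37% of all genes were at that level (3.22% higher and 2.14% lower). The DESeq2 share is not given here. The difference, poly(PR) minus poly(GR), was 0.45 (SE 0.14, adjusted p = 0.786) on the log2 scale for Nup43 and 0.17 (SE 0.076, adjusted p = 0.786) for Ranbp1. Nup35 followed at 0.25 (SE 0.12, adjusted p = 0.786). The 95% interval of the difference stayed within 1.5-fold for 47 of 55. Of the 55, 54.5% had the same sign in both harvests, against 61.3% of all genes tested in both.

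What did vary was the level from library to library in the poly(PR) harvest. The ratio of the highest to the lowest library had a median of 1.43 over the 55 genes there and of 1.20 in the poly(GR) harvest, and it exceeded 1.5 for 21 genes against 0. Ranbp2 had the widest spread, at 2.25-fold, against 1.25-fold in the poly(GR) harvest. Across all genes the median ratios were 1.66 and 1.33, above those of the transport genes, and 11892 of 19156 and 6514 of 18511 exceeded 1.5. The poly(PR) harvest has more libraries, 7 and 4 against 4 and 4, which by itself tends to raise such a ratio. The spread ran along with the share of gene reads that came from mitochondrial genes, a property of each library, which was 3.72% to 6.34% in the poly(PR) harvest and 4.15% to 4.76% in the poly(GR) harvest. High and low shares occurred in both groups of the poly(PR) harvest, from 3.75% to 5.66% in controls and from 3.72% to 6.34% in poly(PR) mice.

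**Figure D3:**
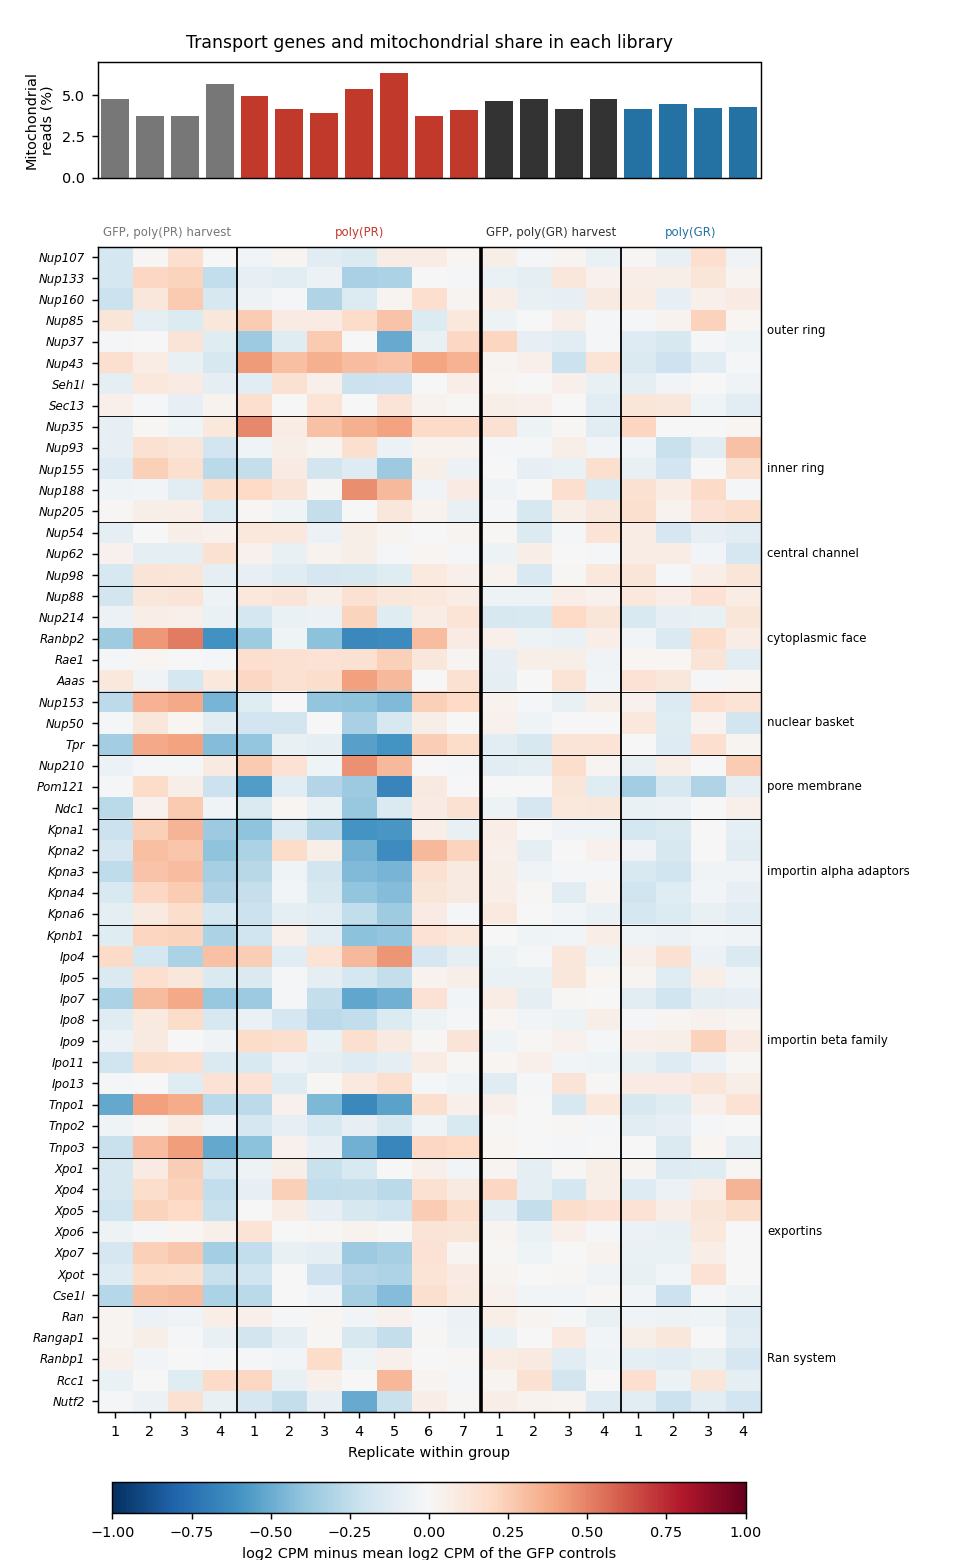
Log2 CPM of each transport gene in each of the 19 libraries, minus the mean log2 CPM of the GFP controls of its harvest (colour), under the mitochondrial share of gene reads in that library (bars, from 0). Importin alpha genes, Ranbp2, Tpr, Nup153, Tnpo1 and Tnpo3 are lower (blue) in the poly(PR)-harvest libraries with the highest bars, controls included.

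The relation with the share was fitted across all genes with edgeR, keeping the group and sex terms, and is given as the log2 change for each doubling of the share. It was chosen after the library values were seen. In the poly(PR) harvest 25 of the 55 transport genes were lower at a higher share, or 45.5%, against 21% of all genes, and 7 were higher, or 12.7%, against 19.3%. The median slope was -0.28 over the 55 and 0.03 over all genes tested. Every importin alpha, every basket nucleoporin, 5 of 7 exportins and 6 of 11 importins of the beta family were lower. None of the 3 channel nucleoporins was called in either direction.

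The steepest slopes belonged to genes of different roles. Ranbp2 gave -1.29 (SE 0.21, adjusted p = 0.000361). Tnpo3, the importer of SR splicing factors, gave -1.24 (SE 0.14, adjusted p = 4.04e-05), and the adaptor Kpna2 gave -1.22 (SE 0.13, adjusted p = 3.76e-05). Tpr, the long coiled coil of the basket, gave -1.21 (SE 0.15, adjusted p = 7.57e-05). Kpna2 stood at 11.3 CPM in the poly(PR) library with the highest share and at 21.9 CPM in the one with the lowest. In the controls it was at 13.2 CPM at the highest share and 21.2 CPM at the lowest. Ipo7, Kpna1, Tnpo1, Nup153, Cse1l and Kpna3 followed, with slopes between -0.93 and -0.86. Kpnb1 had a slope of -0.75 (SE 0.11, adjusted p = 0.000143). In the opposite direction Ipo4, an importin for histones, rose with the share, at 0.78 (SE 0.13, adjusted p = 0.000331), although 55.3% of its exonic bases are shared with the gene model Gm49378. Nup188, Nup85, Nup210, Aaas, Rcc1 and Ipo13 were the other 6 that were higher, at 0.50 to 0.30. Ran had a slope of 0.097 (SE 0.083, adjusted p = 0.379) and did not pass.

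**Figure D4:**
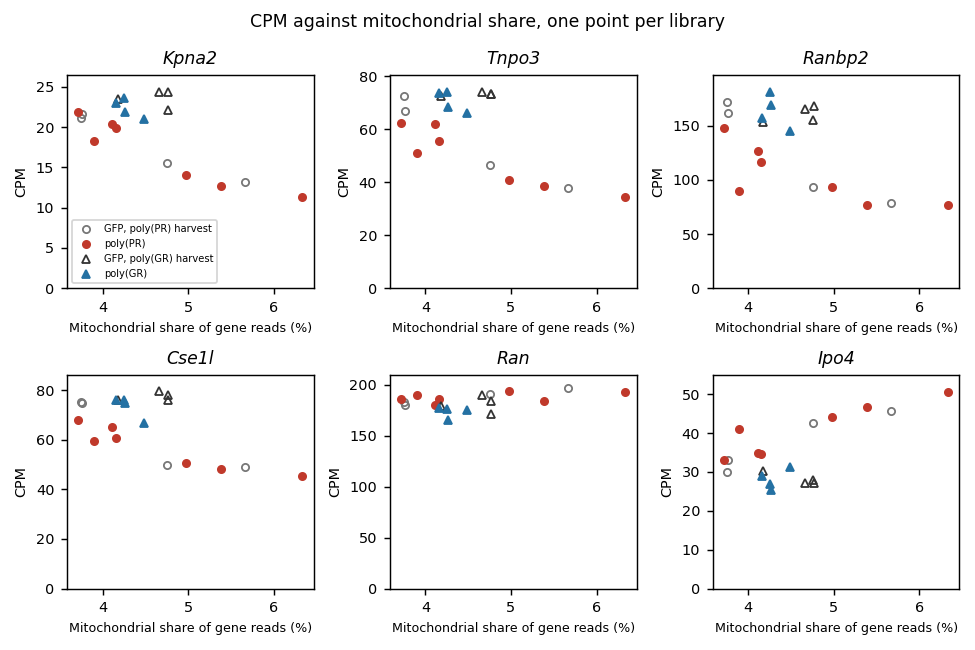
CPM of Kpna2, Tnpo3, Ranbp2, Cse1l, Ran and Ipo4 (vertical axes from 0) against the mitochondrial share of gene reads (%), with 1 point per library; circles are the poly(PR) harvest, triangles the poly(GR) harvest, and open symbols the GFP controls. Among the circles, the first 4 genes fall with the share in controls and poly(PR) mice alike, Ran stays between 179.6 and 196 CPM and Ipo4 rises.

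Fits on fewer libraries of the poly(PR) harvest reuse data in which the 25 and 7 genes were called. Kept signs there are not an independent test. Among the 7 poly(PR) mice alone the slopes kept their sign for all 25 and all 7 genes. There 16 of the 25 and 4 of the 7 still passed, against 14.3% of all genes lower and 12.7% higher. Without the 2 libraries farthest from the median share, control replicate 4 and poly(PR) replicate 5, 23 were lower, 22 of them among the 25, and 4 were higher, against 17.6% and 11.9% of all genes. In the poly(GR) harvest 0 of the 55 passed in either direction, as did 0% of all genes, and 2.11% of all genes had an unadjusted p under 0.05. The share spans a narrower range there, and the slope of Kpna2, -0.31, had an SE of 0.56, against 0.13 in the poly(PR) harvest. The signs did not carry over as a whole. Of the 25 lower genes 15 had a slope below 0 in the poly(GR) harvest, and of the 7 higher genes 6 did; among all genes called lower and higher the shares below 0 were 42.5% and 64.8%. Nup188 had a slope of -1.49 (SE 0.56) there and Ipo4 one of -0.52 (SE 0.62), both opposite to the poly(PR) harvest. Tnpo1 had 1.18 (SE 0.60) and Ranbp2 0.14 (SE 0.63), again opposite. At shares of 4.66% to 4.76%, controls 1, 2 and 4 of the poly(GR) harvest had 22.1 to 24.4 CPM of Kpna2, while control 1 of the poly(PR) harvest, at 4.76%, had 15.6 CPM, on scales set within each harvest.

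Other properties of the libraries moved with the share. In the 5 libraries of the poly(PR) harvest with the highest share, the summed oligodendrocyte markers were 7106 to 8563 CPM, against 5080 to 6414 CPM in the other 6. Of the oligodendrocyte markers 0 of 7 were lower and 2 of 7 were higher with the share, and of the hippocampus markers 4 of 7 were lower. Endothelial markers were lower for 4 of 6, with sums of 165.6 to 195 CPM in the 5 libraries and 190.5 to 263 CPM in the others, and so were 4 of 6 cortical excitatory neuron markers and 3 of 8 striatum markers. Of 7 astrocyte markers 3 were lower and 3 higher, of 8 microglia markers 1 was lower and 2 were higher, and of 7 choroid plexus markers 0 were called. Neuron markers were lower for 4 of 8, with sums of 6045 to 6961 CPM in the 5 libraries and 6702 to 7875 CPM in the others. Multimapping reads were 5.48% to 6.74% of all reads in the 5 libraries and 4.79% to 5.48% in the other 6. The part of cell composition and of RNA quality in the slopes was not tested.

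The genes that fell and rose with the share differed in base composition. The longest coding transcript of the 25 lower genes had a median of 45.0% G and C, with a range of 39.6% to 57.6%, and that of the 7 higher genes 54.6%, with a range of 51.3% to 57.5%. The 23 that did not pass had a median of 47.9%. All genes showed the same order, at 45.9% for lower, 55.3% for higher and 50.6% for neither. Across the 55 genes, slope and G and C content had a Pearson r of 0.62, and across 15276 protein-coding genes tested 0.44; genes of a library share its depth and composition, and these values are descriptions. Transcripts of the lower genes were also longer, with a median of 5580 bases against 3595 for the higher genes and 2928 for the rest. Among all genes the medians were 4691 bases for lower, 2203 for higher and 2962 for neither, so the higher and the remaining genes stood in the other order.

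**Figure D5:**
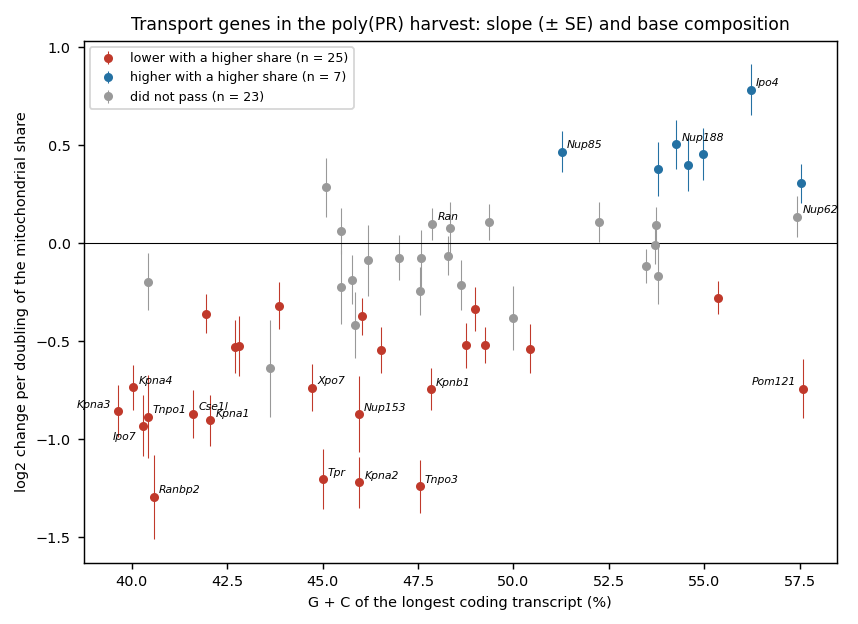
Slope on the mitochondrial share (log2 change per doubling, ± SE) of each of the 55 transport genes in the poly(PR) harvest against the G and C content of its longest coding transcript (%); colours mark the 25 lower, 7 higher and 23 other genes. The 7 higher genes lie between 51.3% and 57.5% G and C, and Ranbp2, Tnpo3, Kpna2 and Tpr, with the steepest falls, between 40.6% and 47.5%.

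The promoters of the 3 genes that fell most steeply with the share, and of the gene that rose most, are shown because these genes define the extremes of that axis. Each runs from 250 bases before to 50 after the annotated start, 5′ to 3′ on the gene's own strand, from RefSeq on GRCm38.p6: in the order printed, chr10:58446602-58446901 (plus strand), chr6:29609800-29610099 (minus), chr11:106999476-106999775 (minus) and chr14:55635635-55635934 (minus). Capitals mark 3 motifs searched on both strands: CCGGAAG, a core site of ETS factors (CTTCCGG in reverse), CCAAT, the CCAAT box (ATTGG), and TGACG, a part of the cAMP response element (CGTCA). No marked matches overlap each other. The GENCODE annotation, used here for positions and exon lengths, places 2 of these starts elsewhere. There Ipo4 spans bases 55625400 to 55635957 on the minus strand, so its whole window lies inside that gene model. Ranbp2 starts there at base 58446920, after the end of its window.
Ranbp2: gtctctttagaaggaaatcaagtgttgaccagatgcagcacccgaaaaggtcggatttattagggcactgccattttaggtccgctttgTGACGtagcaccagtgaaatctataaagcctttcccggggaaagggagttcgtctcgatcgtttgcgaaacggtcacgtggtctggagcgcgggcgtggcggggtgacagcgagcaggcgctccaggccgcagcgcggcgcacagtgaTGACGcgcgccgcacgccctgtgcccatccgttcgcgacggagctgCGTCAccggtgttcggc
Tnpo3: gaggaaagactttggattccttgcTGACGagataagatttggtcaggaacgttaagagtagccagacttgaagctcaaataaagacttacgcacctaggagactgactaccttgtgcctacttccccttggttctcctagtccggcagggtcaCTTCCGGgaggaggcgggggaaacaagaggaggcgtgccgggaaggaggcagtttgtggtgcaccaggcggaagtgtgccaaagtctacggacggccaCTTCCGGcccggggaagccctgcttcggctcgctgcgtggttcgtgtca
Kpna2: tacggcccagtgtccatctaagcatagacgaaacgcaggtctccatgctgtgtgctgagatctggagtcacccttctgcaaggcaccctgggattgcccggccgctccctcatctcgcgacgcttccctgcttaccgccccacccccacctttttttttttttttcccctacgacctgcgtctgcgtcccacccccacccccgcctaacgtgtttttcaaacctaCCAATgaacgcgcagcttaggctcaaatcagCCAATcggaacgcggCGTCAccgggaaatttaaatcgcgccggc
Ipo4: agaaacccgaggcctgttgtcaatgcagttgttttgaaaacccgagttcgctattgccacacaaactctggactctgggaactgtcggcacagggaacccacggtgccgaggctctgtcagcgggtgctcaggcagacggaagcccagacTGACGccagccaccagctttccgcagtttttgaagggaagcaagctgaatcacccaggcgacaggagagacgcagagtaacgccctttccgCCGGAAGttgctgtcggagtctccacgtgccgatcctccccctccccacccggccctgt
The Kpna2 window held 2 CCAAT boxes and 1 TGACG, the Tnpo3 window 2 ETS sites and 1 TGACG, the Ranbp2 window 3 TGACG, and the Ipo4 window, of the gene that moved the other way, 1 ETS site and 1 TGACG. The last motif therefore occurred in all 4 windows, in the falling genes and in the rising one. Of 53 windows found for 45 of the 55 genes, 10 held an ETS site, 23 a CCAAT box and 22 a TGACG. The shares among all 32851 windows were 8.86%, 37.4% and 20.8%. The windows of the transport genes had a median of 64.0% G and C and 28 CpG, against 52.7% and 7 over all windows.

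The poly(PR) comparison was repeated with the share as a covariate and, separately, without poly(PR) replicate 6. That library had an rRNA share of repeat reads of 43.3%, while the other 6 poly(PR) libraries had 34.4% to 36.1% and the controls 40.0% to 46.1%. With the mitochondrial share in the model, Kpna1 passed, at a log2 fold change of -0.25 (SE 0.07, adjusted p = 0.0490), and 5.54% of all genes passed. Counted at an unadjusted p under 0.05, 4 transport genes were higher (Nup43, Nup35, Rae1 and Aaas) and 5 lower (Kpna1, Pom121, Tnpo2, Ipo7 and Kpna6), against 24.6% of all genes, with Nup43 at 0.34 (SE 0.10, adjusted p = 0.0568). Without replicate 6 none passed, although 3.26% of all genes did, and the smallest adjusted p was 0.0709. There 7 were higher and 12 lower at an unadjusted p under 0.05, against 31.1% of all genes. Kpna1 was then at -0.44 (SE 0.13), Tnpo1 at -0.46 (SE 0.15) and Ranbp2 at -0.51. Without control replicate 3 the values shrank, to -0.19 for Kpna1, -0.14 for Tnpo1, -0.093 for Ranbp2, -0.035 for Nup153 and -0.033 for Cse1l, and 15 of the 23 receptors were below 0. With the rRNA share as a covariate 0 passed and Nup43 alone had an unadjusted p under 0.05, while the value of Kpna1 was -0.09 (SE 0.26).

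Other genes of the pathway, such as mRNA export factors, further importins and the SUMO enzymes that act at the pore, were measured as well. Of 46 listed, 45 were found and 42 were tested in each harvest, and 0 were called. Under poly(PR) 2 were higher and 1 lower at an unadjusted p under 0.05. Ranbp9, a Ran-binding scaffold protein, was 80.7 ± 9.05 against 69.9 ± 8.26 CPM (SD, n = 4 and 7), at a log2 fold change of -0.23 (SE 0.096, adjusted p = 0.307). Thoc3, of the THO complex that couples transcription to mRNA export, was 31.8 ± 1.93 against 35.0 ± 1.79 CPM (SD, n = 4 and 7), and Sumo3, a SUMO protein, was 109 ± 9.28 against 124 ± 10.9 CPM (SD, n = 4 and 7). Under poly(GR) 2 were higher and 3 lower. The mRNA export helicase Ddx39b was 132 ± 9.11 against 147 ± 3.88 CPM (SD, n = 4 and 4), at a log2 fold change of 0.18 (SE 0.057, adjusted p = 0.274). Ranbp9 was 76.8 ± 0.95 against 70.4 ± 2.60 CPM (SD, n = 4 and 4). The median log2 fold change of the 42 was 0.04 with poly(PR) and -0.0068 with poly(GR).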

How the data were processed

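Per the labels' protocols, stranded total RNA libraries were made, although the molecule label reads polyA RNA. Tools named in the submitters' processing notes are STAR 2.5.2b and Trimmomatic 0.36, and both mm10 and mm9 are listed as builds; which annotation was counted on is not stated there. The authors deposited 1 table of raw read counts per gene and 1 of repeat reads per library. Among the gene tables, 14 have 4 columns and 5, all in the poly(GR) harvest, have 2. The unstranded counts were used: the 2 stranded columns each held about 50% of reads (49.9% to 50.1%), so the counts keep no strand. Of 53801 gene IDs, 53706 matched GENCODE M21 on GRCm38, which gave symbols, positions and exon lengths. No pair of libraries within a group agreed within sampling noise (chi-square over genes, per degree of freedom, at least 5.585). Precision is set by 26934239 to 47648711 gene reads per library and by 4 or 7 mice per group.

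Each harvest was fitted separately in edgeR 4.0.16 (R 4.3.3, TMM scaling, filterByExpr, quasi-likelihood test, sex as covariate), and the difference of the 2 effects in a fit of all 19 libraries. P-values were adjusted over all genes by the Benjamini-Hochberg method at a threshold of 0.05. Intervals are 95%. CPM of single genes is scaled by TMM within a harvest, and marker sums are CPM of all gene reads without that scaling. Levels between genes are per kilobase of summed exons (RPKM), in place of the TPM first planned. The relation with the mitochondrial share used log2 of that share beside group and sex. The fits were tested on simulated data. Alternatives were DESeq2 1.42.0, other size factors, no filter, no sex term, 1 surrogate variable (sva 3.50.0), covariates and left-out libraries.

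The members and lists were chosen with earlier results of these data known. Values in every library are given for members with the 6 smallest p-values and 2 largest changes in each harvest, those with the 3 smallest p-values for the difference, and a set of 14 central genes. Nup88 and Ipo9, and the genes named for their slope, were chosen after their values were seen. Values of 1 other pathway gene are not reported here.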

Additional observations from a re-analysis of the deposited data

Results flagged for a closer look

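Among 25 transport genes with values in every library, 100 groups of 4 or 7 mice were examined for a library that stood far from the others of its group, and 4 were found; chance gives about 1 in 20 groups. The Ran cofactor Ranbp1 was at 54.95 CPM in poly(PR) replicate 3, while the other 6 poly(PR) mice had 47.0 to 50.2 CPM. The inner ring gene Nup35 was at 10.06 CPM in poly(GR) replicate 1, and the other 3 poly(GR) mice had 8.69 to 8.79 CPM. The importin alpha exporter Cse1l was at 66.89 CPM in poly(GR) replicate 2, below the 74.9 to 76.3 CPM of the other 3. Ran itself was at 165.6 CPM in poly(GR) replicate 4, below the 174.9 to 176.6 CPM of the other 3. The 4 values came from 4 different libraries.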

How the results depend on the processing

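No transport gene passed under any alternative run for the poly(GR) effect or for the difference of effects, and under poly(PR) the count was 0 except with the mitochondrial share as a covariate (1, Kpna1). None passed in the 3 comparisons, so no passing value could reverse. Over all genes the poly(PR) count was 11 in the main fit. It was far higher with DESeq2, with 1 surrogate variable and with all 19 libraries in one fit. It was 617 without poly(PR) replicate 6 and 1061 with the mitochondrial share, and 0 with the striatum score or the rRNA share. Named poly(PR) values that did not pass changed sign in some settings. With the rRNA share as covariate Kpna2 went from -0.12 to 0.17 (SE 0.32) and Ranbp2 from -0.32 to 0.059 (SE 0.36). The count of transport genes at an unadjusted p under 0.05 also moved. Under poly(PR) it was 4, and it became 7 with DESeq2, 8 with all 19 libraries in one fit, 7 with 1 surrogate variable, 1 with the rRNA share and 9 with the mitochondrial share as covariate. Leaving out 1 library gave 2 to 19, with 7 without control replicate 4, 2 without poly(PR) replicate 5 and 19 without poly(PR) replicate 6. Under poly(GR) it was 6, and it became 3 with no sex term, 1 with all 19 libraries in one fit, 1 with the choroid plexus score, 1 with the rRNA share and 2 with the mitochondrial share. It was 0 within the 2-column gene tables and 1 within the 4-column tables, a fit with a single control that borrows the spread of the treated mice. Leaving out 1 library gave 3 to 9, the 3 without control replicate 2. For the difference it was 2, and it became 1 with no filter on low counts, 1 with no sex term and 1 to 9 with 1 library left out, the 9 without poly(PR) replicate 6 and 5 without control replicate 4 of the poly(PR) harvest. The 25 genes lower at a higher mitochondrial share became 16 within the poly(PR) libraries and 22 to 30 with 1 library left out. The 7 higher genes became 4 within the poly(PR) libraries, 4 without the 2 farthest libraries and 4 to 7 with 1 library left out, the 4 without control replicate 3, control replicate 4 or poly(PR) replicate 6. For these slopes the shares of all genes with 1 library left out are not given here. The cause of these moves was not tested. The 35 transport genes below 0 under poly(PR) became 22 with 1 surrogate variable and 24 with the rRNA share. They stayed 35 with the mitochondrial share and were 34 with the striatum score. With 1 library left out they were 30 to 37, the 30 without control replicate 3. Of the named log2 values, 40 of the poly(PR) and 36 of the poly(GR) alternatives moved by more than 1 SE. No paired analysis was possible because replicate numbers were given in accession order and do not link mice across groups. All gene tables of the poly(PR) harvest have 4 columns, so the split by table layout was not run there.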
